A study of Mus musculus with 20 samples.

Results

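The genes described here are the neuregulin ligand Nrg1, its receptors Erbb2, Erbb3 and Erbb4, and 5 genes linked to transcription through ETS binding sites: Gabpa, Gabpb1, Gabpb2, Etv4 and Etv5. They were taken by symbol and make up 9 of the 26722 genes in the deposited table. Counts came from C2C12 myotubes, a clonal mouse muscle line that fuses in culture, kept for 5 days in differentiation medium with horse serum and then treated for 16 h. The control received 7.7 nM of b12, a human IgG4 antibody used as the negative control. Bivalent 13-3B5, an antibody of the same class, was given to another group at 7.7 nM and activates muscle-specific kinase (MuSK), the agrin-responsive receptor kinase of the neuromuscular synapse. The agrin group received 0.1 nM of neural agrin with 7.7 nM of b12. The other 2 groups received 0.1 nM of agrin with 7.7 nM of 13-3B5xb12 or of 11-3F6xb12, antibodies that bind MuSK with a single arm and that the labels describe as inhibiting. Each of the 5 treatments had 4 libraries of total RNA, numbered 1 to 4 and called biological replicates, and what a shared number stands for is not given in the labels. P-values therefore measure the spread between these cultures of a single muscle line, and the labels name no nerve or Schwann cells added to them.

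Neuregulin is a secreted or membrane-bound growth factor of nerve and muscle that binds ErbB3 and ErbB4. ErbB2 binds no ligand of its own and serves as the partner kinase, while ErbB3 has little kinase activity and signals through its partner. In the usual account of synapse-specific transcription, neuregulin and MuSK signalling reach GABP, a complex of an ETS-domain alpha subunit (Gabpa) and a beta subunit (Gabpb1 or Gabpb2), which binds the N-box of acetylcholine receptor and other synaptic genes. Etv4 and Etv5 belong to the PEA3 group of ETS factors, and Etv5, also called Erm, is concentrated in nuclei under the synapse.

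The N-box core, CCGGAA or TTCCGG on the other strand, is shown because it is the sequence that links these factors to their targets. In the RefSeq promoter table for GRCm38.p6, 6 of the 9 genes had a window, searched over the 250 bases before the start on both strands. The core was in the windows of 4 of them, Gabpa, Gabpb1, Gabpb2 and Erbb4, and those of Erbb2 and Etv5 had no match. A further 14 subsynaptic genes were listed here as possible targets of these factors, and whether each is a reported target was not checked. Of these, 10 had a window and 2 held the core, Chrne, the adult acetylcholine receptor subunit, and Prkar1a. Over all 32851 windows 12.03% held it, and over 27025 genes 13.59% did in at least 1 window. Gabpb1 had 2 windows, of which 1 held it. Each line gives 30 bases on the strand of the gene, with the core in capitals.
Gabpa: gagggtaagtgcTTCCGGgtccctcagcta
Gabpb1: ccctttctcccgCCGGAAcggggctggggg
Gabpb2: gtccgtcccctgCCGGAActatccctcacg
Erbb4: tggggggagaggCCGGAAccccgccgcctc
Chrne: cccaaacctagcCCGGAActaacaccctcc
These stretches lie on GRCm38.p6 at chr16:84835020-84835049 (plus strand, Gabpa), chr2:126675647-126675676 (minus, Gabpb1), chr3:95217975-95218004 (minus, Gabpb2), chr1:69108179-69108208 (minus, Erbb4) and chr11:70619253-70619282 (minus, Chrne). The core begins 92, 72, 50, 137 and 76 bases before the RefSeq start in the same order. In GENCODE release M21 the Gabpa and Gabpb1 genes start further upstream, so there these stretches lie inside the gene. A match describes these letters only, and binding was not measured.

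Library totals ranged from 18424881 to 23343903 counts. The first principal component, with 20.98% of the variance, separated replicates 1 and 2 from replicates 3 and 4, and mt-Rnr2, a mitochondrial ribosomal RNA, held 32.1 ± 2.56% of counts in the first set and 27.7 ± 1.52% in the second (SD, n = 10 each). The second component, with 14.4%, set apart agrin with 13-3B5xb12 replicate 1 and control replicate 2. All 10 myotube markers examined, among them Myog and Acta1, had counts, whereas the Schwann cell genes Sox10 and Foxd3 are not rows of the table used here. The 5 other Schwann markers summed to 1.27 to 5.79 CPM (counts scaled to a common library total with trimmed mean of M-values factors), of which S100b was the most abundant. Agrin replicate 3 held 13.5 CPM of summed liver markers and no other library held more than 0.633.

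Per kilobase of exon, Erbb3 was the most abundant of these genes and Erbb4 was not detectable. Levels are CPM per kb, averaged over the 20 libraries: 22.6 for Erbb3, 16.4 for Gabpa, 7.04 for Erbb2, 5.93 for Etv4, 2.74 for Etv5, 1.92 for Gabpb2, 1.67 for Gabpb1 and 1.23 for Nrg1. The order held in 20 of 20 libraries between Erbb3 and Gabpa, between Gabpa and Erbb2, between Etv4 and Etv5 and between Etv5 and Gabpb2. Other neighbours changed order between libraries. Erbb2 and Etv4 were in this order in 15 of 20 libraries, Gabpb2 and Gabpb1 in 16, and Gabpb1 and Nrg1 in 19. Erbb3 thus exceeded its partner Erbb2 by 3.26 ± 0.416 times per kb (SD, n = 20), and Gabpa exceeded Gabpb1 10.0 ± 1.65 times and Gabpb2 8.66 ± 1.12 times. These SDs cover the spread between libraries and not the choice of length. The length joins all annotated exons of a gene, and was 15465 bases for Gabpb2 and 5687 for Gabpa. Without division by length the means were 93.2 CPM for Gabpa, 29.6 for Gabpb2, 18.4 for Etv4 and 11.2 for Etv5. The ratios and the order therefore depend on the length used. In a bulk sample, fewer cells of a type and less RNA per cell cannot be told apart.

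**Figure D1:**
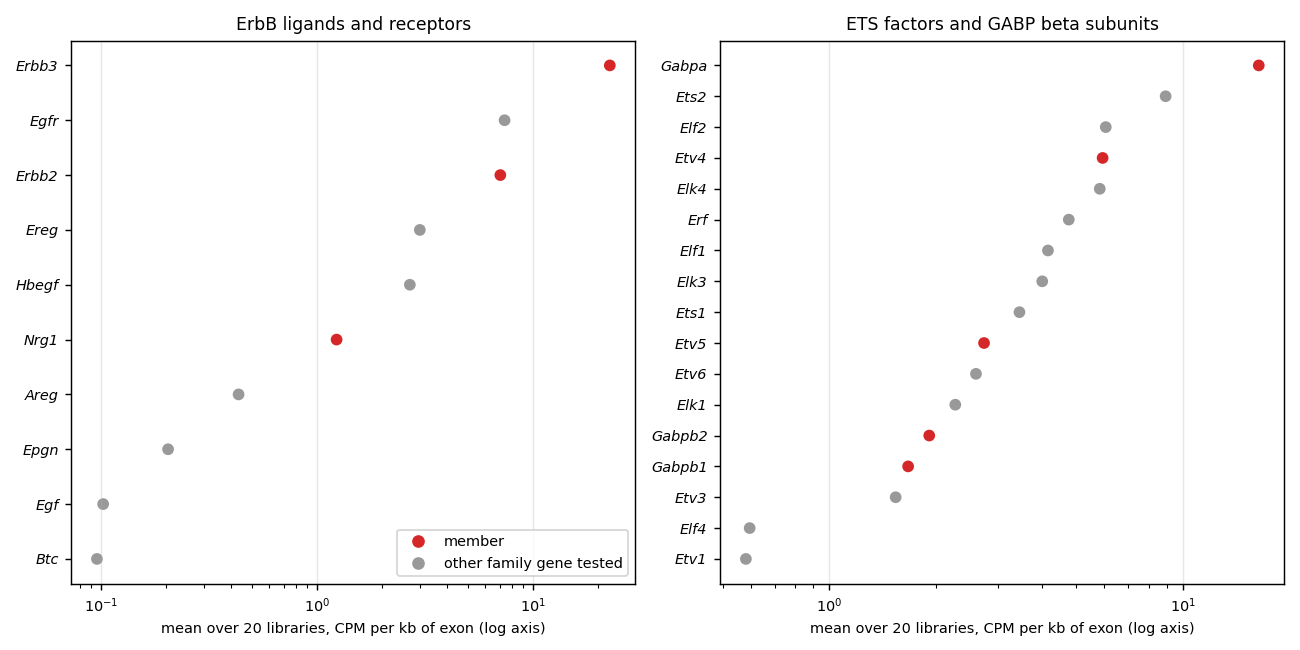
Mean level over 20 libraries in CPM per kb of exon, on a log axis, for the ErbB ligands and receptors (left) and the ETS factors and GABP beta subunits (right), with the genes described here in red and other tested genes of the families in grey. Erbb3 at 22.6 and Gabpa at 16.4 are the highest points of their panels, and Erbb4, which was not tested, is not drawn.

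Among the other genes of both families, Egfr, the receptor of epidermal growth factor, had 7.37 CPM per kb, beside 7.04 for Erbb2. Without division by length Egfr had 83.5 CPM and Erbb2 36.7, so their closeness depends on the exon length used. The ligands Ereg and Hbegf, which act on EGFR and ErbB4, had 2.99 and 2.69, while Nrg2, Nrg4 and Tgfa had counts too low to be tested. Per kb both lay above Nrg1, but without division by length Ereg, Hbegf and Nrg1 had 12.3, 13.0 and 12.8 CPM. Their order therefore depends on the exon length used. Of the 23 other ETS factors listed, 17 were in the table and 12 were tested. Ets2 was the most abundant of them at 8.93 CPM per kb, but without division by length Elf2 had 57.9 CPM and Ets2 51.6. These are levels and not differences between treatments.

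Whether agrin or a MuSK antibody changed these genes was asked in 8 comparisons between treatments, fitted over all genes with edgeR's quasi-likelihood test. Of the 8 genes that passed the filter on low counts, 0 were called in any comparison at a Benjamini-Hochberg adjusted p under 0.05, where 0% of all 14605 genes tested were called in each, and the Wald test of DESeq2 called 0 of the 8 as well. The largest log2 fold change among the 64 values was 0.33, and their 95% intervals lay between a 0.682-fold and a 1.58-fold level. At an unadjusted p under 0.05 there were 4 values, 3 of them of Gabpa. By comparison, 2.85% of all genes had such a p in agrin against control, 2.77% in bivalent 13-3B5 against control, 2.39% in bivalent 13-3B5 against agrin, 3.83% in agrin with 13-3B5xb12 against agrin and 3.33% in agrin with 11-3F6xb12 against agrin. The share was 2.39% for agrin with 13-3B5xb12 and 3.25% for agrin with 11-3F6xb12 against control, and 4.22% between these 2 antibodies. The control and agrin groups each enter several of these comparisons, so the values are not independent. The model above held treatment only. With the replicate set added, the 4 values stayed under 0.05, and agrin with 11-3F6xb12 against agrin gained 3. They were Gabpa at 0.13, Erbb3 at -0.15 and Gabpb1 at 0.30 (edgeR unadjusted p 0.0453, 0.0494 and 0.0472). Of 14605 genes, 733 had such a p in that comparison and 2 were called, with 0 of the 8 among them.

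**Figure D2:**
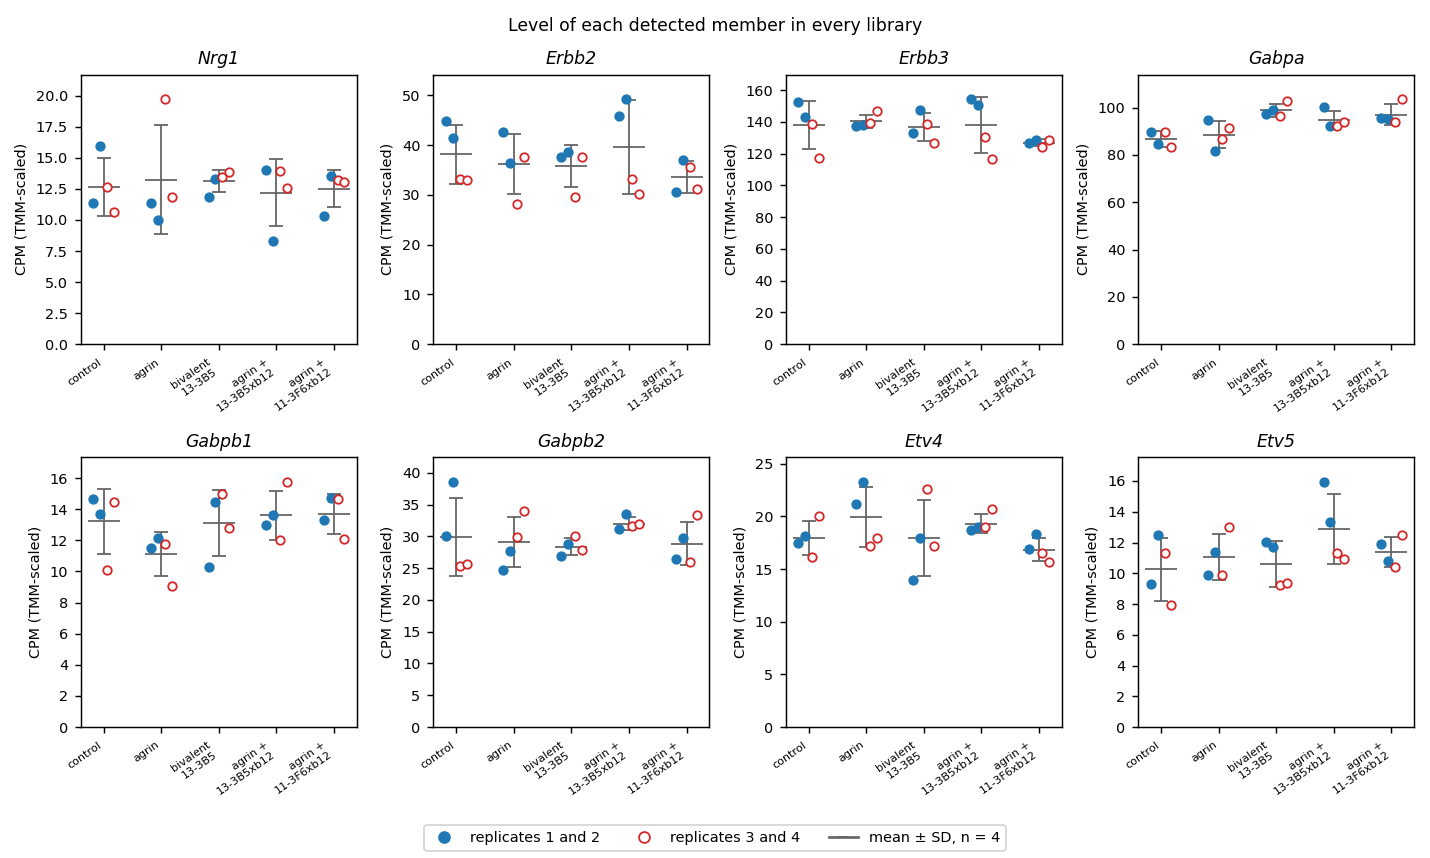
CPM of each detected gene (y axis, from 0) in the 20 libraries by treatment (x axis), with filled points for replicates 1 and 2, open points for replicates 3 and 4, and the mean ± SD of 4 libraries as bars. Gabpa with bivalent 13-3B5 lies between 96.2 and 103 CPM, above all 4 control libraries, while the points of most other genes overlap between treatments.

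Nrg1 (ENSMUSG00000062991, GRCm38 chromosome 8, 31814551 to 32884029) had between 154 and 468 counts in a library. In replicates 1 to 4 its level was 11.4, 15.9, 12.7 and 10.7 CPM in the control and 11.8, 13.3, 13.5 and 13.9 with bivalent 13-3B5. With agrin it was 11.4, 10.0, 19.7 and 11.8 CPM. The 13-3B5xb12 group had 14.0, 8.28, 13.9 and 12.6 CPM and the 11-3F6xb12 group 10.3, 13.5, 13.2 and 13.0. The groups overlapped in all comparisons, and the highest library was agrin replicate 3, the one with liver transcripts, whose part in this value was not tested. The log2 fold change was 0.06 (SE 0.18) for agrin and 0.05 (SE 0.18) for bivalent 13-3B5 against control. The signs were opposite within the pairs of replicates: against control agrin was at -0.35 within replicates 1 and 2 and 0.44 within replicates 3 and 4, and bivalent 13-3B5 at -0.12 and 0.23. Without agrin replicate 3 the value for agrin was -0.19, and without control replicate 2 it was 0.19. Nrg1 had the widest spread of the 8 genes, with an SD of 18.7% of its mean over 20 libraries.

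Erbb2 (ENSMUSG00000062312, chromosome 11, 98412470 to 98437716), the partner kinase, had 44.9, 41.5, 33.1 and 33.1 CPM in control replicates 1 to 4. It had 42.7, 36.5, 28.2 and 37.6 with agrin and 37.6, 38.6, 29.5 and 37.6 with bivalent 13-3B5. Agrin with 13-3B5xb12 gave 45.9, 49.3, 33.2 and 30.2 CPM and agrin with 11-3F6xb12 gave 30.7, 37.1, 35.6 and 31.3. The treatments overlapped throughout, and the highest library of each of the 5 treatments was replicate 1 or 2. The farthest values from 0 were log2 fold changes of -0.24 (SE 0.15) between the monovalent antibodies and -0.18 (SE 0.15) for agrin with 11-3F6xb12 against control, with edgeR adjusted p of 0.992 and 1.00. Both moved with single libraries and differed between the pairs of replicates. The first was -0.35 without agrin with 13-3B5xb12 replicate 4 and -0.11 without its replicate 2, and it was -0.49 within replicates 1 and 2 and 0.08 within replicates 3 and 4. The second was -0.25 without control replicate 4 and -0.09 without control replicate 1, with -0.35 and 0.01 within the first and second pair of replicates.

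Erbb3 (ENSMUSG00000018166, chromosome 10, 128567523 to 128589652), the neuregulin-binding receptor, had 153, 143, 139 and 117 CPM in the control and 138, 138, 139 and 147 with agrin. Values were 133, 148, 139 and 127 with bivalent 13-3B5, 154, 151, 131 and 117 with agrin and 13-3B5xb12, and 126, 129, 124 and 129 with agrin and 11-3F6xb12. The last group was the narrowest, with an SD of 2.04 CPM compared with 17.7 in agrin with 13-3B5xb12. All 4 of its libraries lay below the 4 agrin libraries, a log2 fold change of -0.14 (SE 0.08, edgeR adjusted p 1.00), where 2.9% of all genes had no overlap between these groups. Erbb4 (ENSMUSG00000062209, chromosome 1, 68032186 to 69108059), the other neuregulin-binding receptor, had 1 count in control replicate 3 and 0 in the other 19 libraries. A level at or under 3 counts, from 0.125 to 0.161 CPM depending on the library, was not detectable at this depth.

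Gabpa (ENSMUSG00000008976, chromosome 16, 84834925 to 84863779), the DNA-binding alpha subunit of GABP, had the most even level of the 8 genes, with an SD of 6.51% of its mean over 20 libraries. It had 89.7, 84.6, 89.8 and 83.4 CPM in the control and 94.7, 81.5, 86.7 and 91.3 with agrin. With bivalent 13-3B5 it had 97.4, 99.0, 96.2 and 103, with agrin and 13-3B5xb12 it had 100.3, 92.1, 92.1 and 94.0, and for agrin with 11-3F6xb12 the values were 95.6, 95.0, 93.9 and 104. All libraries of these 3 groups were above all control libraries, and those with bivalent 13-3B5 were also above all agrin libraries. Over all genes, groups failed to overlap in 1.88% for bivalent 13-3B5 against control, 2.38% for bivalent 13-3B5 against agrin, 1.64% for agrin with 13-3B5xb12 against control and 2.16% for agrin with 11-3F6xb12 against control.

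The log2 fold change of Gabpa in bivalent 13-3B5 against control was 0.19 (SE 0.07, 95% interval 0.05 to 0.32), with an unadjusted p of 0.00914 and an adjusted p of 0.999 from edgeR. Against agrin the bivalent antibody gave 0.16 (SE 0.07, edgeR unadjusted p 0.0241, adjusted p 1.00). Agrin with 11-3F6xb12 against control gave 0.16 (SE 0.07, edgeR unadjusted p 0.0230, adjusted p 1.00), and agrin with 13-3B5xb12 against control 0.12 (SE 0.07). Agrin alone was at 0.03 (SE 0.07, 95% interval -0.11 to 0.16). None of these passed the adjusted threshold, and in the test of any difference between the 5 treatments Gabpa had an unadjusted p of 0.0342 and an adjusted p of 1.00 in edgeR, where 2.25% of genes had an unadjusted p under 0.05 and 0% were called. Atp5j, which encodes a subunit of the mitochondrial ATP synthase, and Gabpa share 397 exon bases on opposite strands, and whether strand was used in counting is not given in the sources used here. Atp5j had a log2 fold change of 0.23 (SE 0.08, edgeR adjusted p 0.999) in bivalent 13-3B5 against control and 0.05 (SE 0.08) in agrin with 11-3F6xb12 against control, and its part in the Gabpa counts was not tested.

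Gabpb1 (ENSMUSG00000027361, chromosome 2, 126627442 to 126676337), a beta subunit that carries the activation domain, ranged from 9.08 to 15.8 CPM. Its mean was 13.2 ± 2.11 in the control, 11.1 ± 1.39 with agrin, 13.1 ± 2.11 with bivalent 13-3B5, 13.6 ± 1.57 for agrin with 13-3B5xb12 and 13.7 ± 1.26 for agrin with 11-3F6xb12 (SD, n = 4 each). Agrin alone had the lowest mean, at a log2 fold change of -0.25 (SE 0.15) against control. Against agrin, the values were 0.30 for agrin with 11-3F6xb12, 0.29 for agrin with 13-3B5xb12 and 0.24 for bivalent 13-3B5 (SE 0.15 each). The edgeR unadjusted p were 0.0991, 0.0514, 0.0576 and 0.116 in this order. The first and second had adjusted p of 1.00, none passed, and the groups overlapped. Without agrin replicate 4, agrin against control was at -0.17 and agrin with 11-3F6xb12 against agrin at 0.21.

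Gabpb2 (ENSMUSG00000038766, chromosome 3, 95181766 to 95217916), the alternative beta subunit, ranged from 24.6 to 38.6 CPM, and its highest library was control replicate 2, which stood apart on the second component. Over all libraries its largest log2 fold change between treatments was -0.15 (SE 0.12, edgeR adjusted p 0.992), for agrin with 11-3F6xb12 against agrin with 13-3B5xb12. Signs were opposite within the pairs of replicates for agrin against control, at -0.39 within replicates 1 and 2 and 0.33 within replicates 3 and 4. Over all libraries that comparison was at -0.04 (SE 0.12). Gabpb2 shares 328 exon bases with the antisense gene Gm16740, whose mean was 0.713 CPM.

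Etv4 (ENSMUSG00000017724, chromosome 11, 101769742 to 101785371), an ETS factor of the PEA3 group, had 17.5, 18.2, 16.2 and 20.04 CPM in the control and 21.2, 23.3, 17.2 and 17.9 with agrin. It had 13.9, 17.9, 22.7 and 17.2 with bivalent 13-3B5, 18.7, 19.0, 19.0 and 20.7 with agrin and 13-3B5xb12, and 16.9, 18.3, 16.5 and 15.6 with agrin and 11-3F6xb12. Only the 2 monovalent groups did not overlap, with a log2 fold change of -0.20 (SE 0.13, edgeR adjusted p 0.992) for 11-3F6xb12 against 13-3B5xb12, where 2.72% of all genes had no overlap. Bivalent 13-3B5 had both the lowest library of Etv4, replicate 1, and the second highest of the 20, replicate 3.

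Etv5 (ENSMUSG00000013089, chromosome 16, 22381309 to 22439719) had 9.30, 12.5, 11.3 and 7.92 CPM in the control and 15.9, 13.3, 11.3 and 11.0 with agrin and 13-3B5xb12. It had 9.91, 11.4, 9.91 and 13.0 with agrin, 12.06, 11.7, 9.26 and 9.34 with bivalent 13-3B5 and 11.9, 10.8, 10.4 and 12.5 with agrin and 11-3F6xb12. The first pair of groups overlapped, and their log2 fold change of 0.33 (SE 0.16, 95% interval 0.00320 to 0.66) was the largest of the 64 values. It had an unadjusted p of 0.0479 and an adjusted p of 1.00 from edgeR. With 1 library of either group left out it ran from 0.21, without agrin with 13-3B5xb12 replicate 1, to 0.44, without control replicate 2, the libraries that stood apart on the second component.

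**Figure D3:**
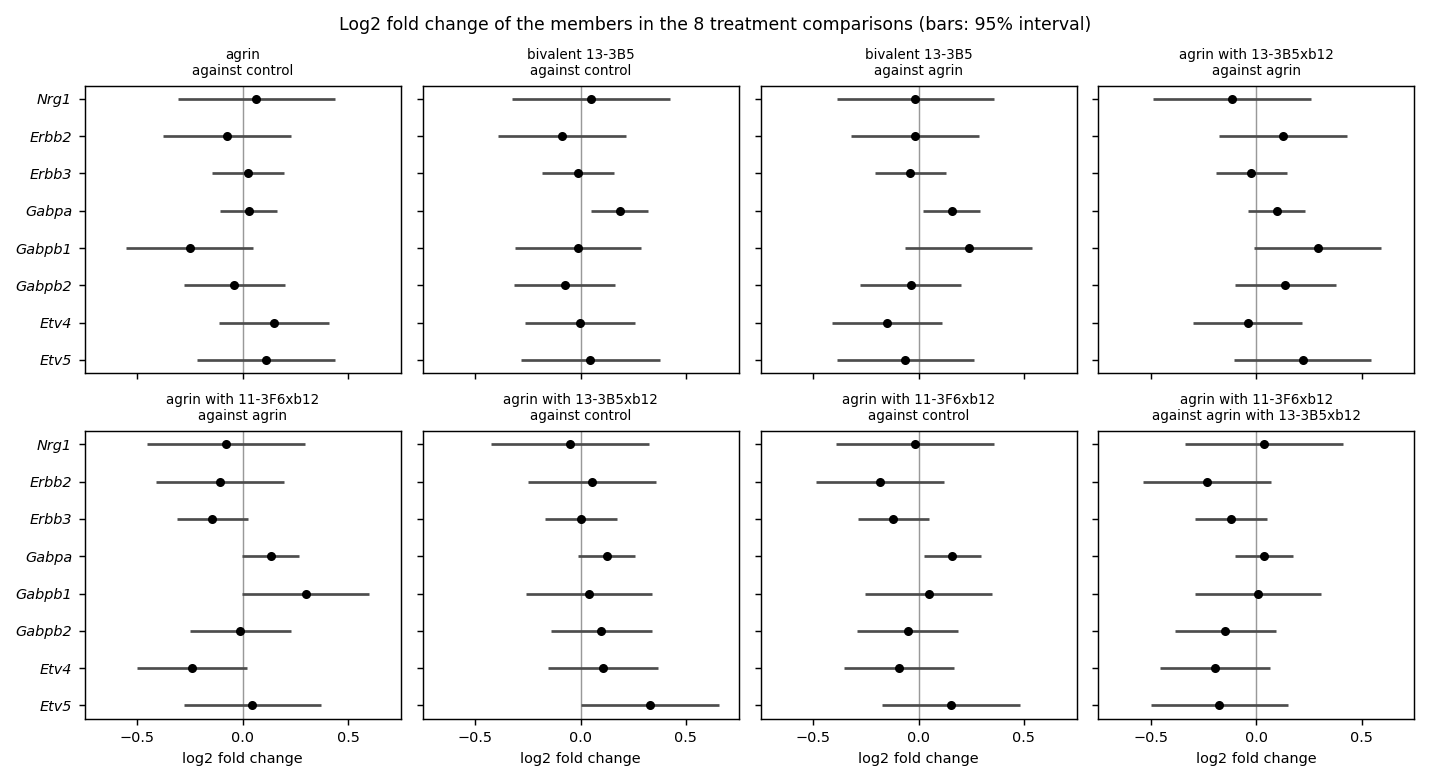
Log2 fold change (x axis, points) with its 95% interval (bars) for the 8 tested genes (rows) in each of the 8 treatment comparisons (panels). Intervals that leave 0 out belong to Gabpa in 3 panels and to Etv5 in agrin with 13-3B5xb12 against control, and none of these passed the adjusted threshold.

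The rest of the pathway was described with lists that, like the genes above, were chosen with earlier results of these data known. In the 8 treatment comparisons 0 genes of any of these lists were called by edgeR. At most 2 of a list had an edgeR unadjusted p under 0.05 in any comparison. The lists held 7 tested ErbB ligands and Egfr, 21 genes of ErbB signalling and turnover and 12 other ETS factors. They also held 14 subsynaptic genes and 10 genes that respond to ERK signalling together with Etv4 and Etv5. Median log2 fold changes of agrin against control were 0.06, -0.05, -0.05, -0.05 and -0.07 in this order, beside 0.0004 for all genes tested.

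Between the 2 replicate sets, 1 gene of the neuregulin group was called. The 2 sets, replicates 1 and 2 and replicates 3 and 4, were noticed in these data and have no label of their own. Erbb2 was lower in replicates 3 and 4, at 32.9 ± 3.25 CPM compared with 40.5 ± 5.46 in replicates 1 and 2 (SD, n = 10 each), a log2 fold change of -0.29 (SE 0.07, 95% interval -0.43 to -0.15, edgeR adjusted p 0.00288 with treatment in the model). It was 1 of 8 genes called, where 13.1% of all 14605 genes were called and 7.13% were called as lower, so the count is near the background.

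The 10 libraries of replicates 1 and 2 ranged from 30.7 to 49.3 CPM of Erbb2 and those of replicates 3 and 4 from 28.2 to 37.6, so the sets overlapped. The mean was lower in replicates 3 and 4 in 5 of 5 treatments. The difference was widest with agrin and 13-3B5xb12, at -0.59 (SE 0.14) on the log2 scale, and was -0.38 in the control, -0.27 with agrin, -0.18 with bivalent 13-3B5 and -0.02 (SE 0.14) with agrin and 11-3F6xb12. A test of whether the difference between sets depended on treatment gave an unadjusted p of 0.0903 and an adjusted p of 0.966 for Erbb2 in edgeR, and 0 of the 8 genes passed it, where 0.00685% of all genes did. Of the 8 genes 1, Gabpb2, had an unadjusted p under 0.05, where 4.85% of all genes had one.

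**Figure D4:**
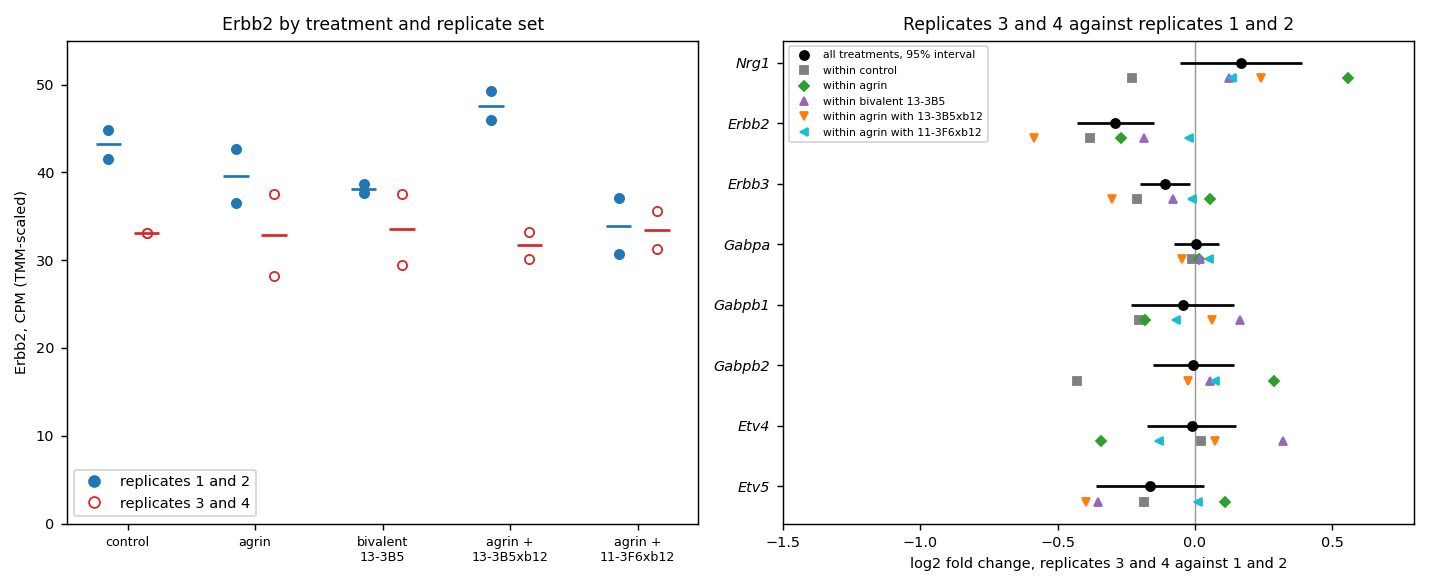
Left, Erbb2 in CPM (y axis, from 0) by treatment, with each library as a point and the mean of 2 libraries as a line, filled for replicates 1 and 2 and open for replicates 3 and 4. Right, log2 fold change of replicates 3 and 4 against 1 and 2 for the 8 tested genes, as the estimate over all treatments with its 95% interval and as 5 estimates within treatments, where those of Erbb2 run from -0.59 to -0.02.

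Leaving out any single library kept the call of Erbb2 between the sets in 20 of 20 fits (edgeR adjusted p 0.000749 to 0.00943). Leaving out replicate 3 of every treatment ended it, at -0.24 on the log2 scale (edgeR adjusted p 0.0792). In the test of any difference between the 4 replicate numbers, which makes no choice of sets, Erbb2 was the one member called (edgeR adjusted p 0.0409), where 7.19% of all genes were called. That call held in 8 of 20 fits without a single library, those without agrin replicate 2 or 4, bivalent 13-3B5 replicate 4, agrin with 13-3B5xb12 replicate 1 or 4, agrin with 11-3F6xb12 replicate 1 or 3 and control replicate 2. In the other 12 it was lost, and over the 20 fits the edgeR adjusted p ran from 0.00796 to 0.108.

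Erbb3 was also lower in replicates 3 and 4, at 131 ± 10.0 compared with 141 ± 10.1 CPM (SD, n = 10 each), with a log2 fold change of -0.11 (SE 0.05) that did not pass (edgeR adjusted p 0.114). The ratio of Erbb3 to Erbb2 per kb was 3.05 ± 0.269 in replicates 1 and 2 and 3.47 ± 0.441 in replicates 3 and 4. Nrg1 had 12.004 ± 2.24 and 13.5 ± 2.40 CPM in the first and second set, a log2 fold change of 0.17 (SE 0.11, edgeR adjusted p 0.376). Without agrin with 13-3B5xb12 replicate 1 and control replicate 2, the libraries that stood apart, the value for Nrg1 was 0.29 (edgeR adjusted p 0.0356), so that 2 of the 8 genes were then called, where 17.6% of all genes were. Without agrin replicate 3 alone the value for Nrg1 was 0.08 (edgeR adjusted p 0.713). Etv5 was at -0.16 (SE 0.10), or -0.09 without the libraries that stood apart, and Gabpa, Gabpb1, Gabpb2 and Etv4 were between -0.04 and 0.01 with edgeR adjusted p of 0.841 or more. For Gabpb2 and Etv4 these averages held opposite signs within treatments. Gabpb2 was at -0.43 within control and 0.29 within agrin, and Etv4 at -0.34 within agrin and 0.32 within bivalent 13-3B5. None of these passed (edgeR adjusted p of 0.124 or more).

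Counts of other pathway genes called between the sets are to be read beside the 13.1% of all genes called, 5.93% as higher and 7.13% as lower in replicates 3 and 4. Among the 7 tested ErbB ligands and Egfr 2 were called: Ereg rose by 0.82 (SE 0.09, edgeR adjusted p 1.60e-08) and Hbegf fell by 0.39 (SE 0.10, edgeR adjusted p 0.00456) on the log2 scale. Of 21 genes of ErbB signalling and turnover 2 rose and 1 fell: Rnf41, a ubiquitin ligase that lowers ErbB3, was at -0.34, Pak1, a kinase downstream of the receptors, at 0.32, and Errfi1, an inhibitor of ErbB kinases, at 0.28. Of the 12 other ETS factors 0 passed by edgeR, with 3 at an unadjusted p under 0.05, a level that 24.4% of all genes reached.

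Of the 14 listed subsynaptic genes, 1 rose and 5 fell in replicates 3 and 4, where 5.93% of all genes were called as higher and 7.13% as lower. The list's median log2 fold change was -0.12 beside 0.006 for all genes. The list was chosen with earlier results of these data known, so its count is a description. The most certain were Chrnd, an acetylcholine receptor subunit, at 115 ± 4.36 compared with 140.4 ± 10.7 CPM, Scn4a, the muscle sodium channel, at 16.6 ± 2.35 compared with 24.5 ± 5.79, and Rapsn, which anchors the receptors, at 75.6 ± 3.34 compared with 84.5 ± 4.40 (SD, n = 10 each). Of 10 genes that respond to ERK signalling, 3 fell and 0 rose, beside the same 7.13% and 5.93%: Spry2 at -0.43, Dusp4 at -0.30 and Spry1 at -0.32, all feedback inhibitors of the pathway. Etv4 and Etv5, often read out with them, did not pass.

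Of the markers of cell state, 2 of 10 for myotubes, 1 of 8 for dividing myoblasts and 1 of 2 tested for Schwann cells were called between the sets, beside 13.1% of all genes. The myotube markers that fell were Ckm at -0.72 and Tnnt3 at -0.43, and the summed level of all 10 ran from 12696 to 14679 CPM in replicates 1 and 2 and from 10400 to 13579 in replicates 3 and 4. Of the myoblast markers Ccnb1 fell, at -0.65, with a summed level of the list of 137 to 222 and of 119 to 224 CPM. S100b, the Schwann marker called, fell by 1.51, with a summed level of the list of 2.83 to 5.79 and of 1.27 to 4.03 CPM. Between treatments 0 of the 8 myoblast markers were called by edgeR. Their median log2 fold change against control was 0.39 for agrin, beside 0.0004 for all genes, and 0.17 for bivalent 13-3B5. For agrin with 13-3B5xb12 and 11-3F6xb12 it was 0.008 and 0.05 against control and -0.38 and -0.37 against agrin. Summed levels ran from 119 to 182 CPM in the control and from 127 to 224 with agrin. Their part in the treatment values was not tested. Across the 20 libraries, after treatment means were removed, Erbb2 had a Pearson r of 0.58 with the mt-Rnr2 share and -0.68 with the first component, to which Erbb2 itself contributed. The part of these measures in the Erbb2 result was not tested.

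How the genes varied together was described over the 20 libraries as the correlation of log2 CPM less treatment means. These values share library, depth and replicate set, and carry no p. The highest of the 28 pairs was Gabpb1 with Etv4 (Pearson r 0.72, Spearman rho 0.72), which was 0.76 when the difference between the sets was also removed. Erbb3 and Etv5 had r 0.65 and Erbb2 and Erbb3 r 0.62, and these fell to 0.39 and 0.06 with that removed. Gabpb1 and Etv5 had the lowest value, r -0.53. Gabpa with its partners had r -0.37 for Gabpb1 and 0.004 for Gabpb2.

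The gene most like each of these over 14605 genes was searched by the same measure. For Nrg1 it was Ets2, another ETS factor, with r 0.93 and rho 0.90. The correlation was 0.90 without the 2 libraries farthest from the median of Nrg1, 0.95 within replicates 1 and 2 and 0.89 within replicates 3 and 4. Both were highest in agrin replicate 3, and Nrg1 also had r 0.64 with the slope of a library's deviations on transcript length, whose part was not tested. The nearest genes to the others had lower values: r 0.86 for Erbb2 with Bicdl1, 0.84 for Erbb3 with Fam43a, 0.82 for Gabpa with Carmil2, 0.82 for Gabpb1 with Gm7045, 0.87 for Gabpb2 with Dctn1, 0.83 for Etv5 with Nfia and 0.78 for Etv4 with Pomk. Carmil2, Gm7045 and Nfia had low means, of 0.263, 0.518 and 0.594 CPM. Without the 2 libraries farthest from the median of the member, their r was 0.73, 0.65 and 0.77. Bicdl1 had r 0.47 with Erbb2 within replicates 1 and 2 and 0.91 within replicates 3 and 4. Highest values picked from so many genes are a description only.

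**Figure D5:**
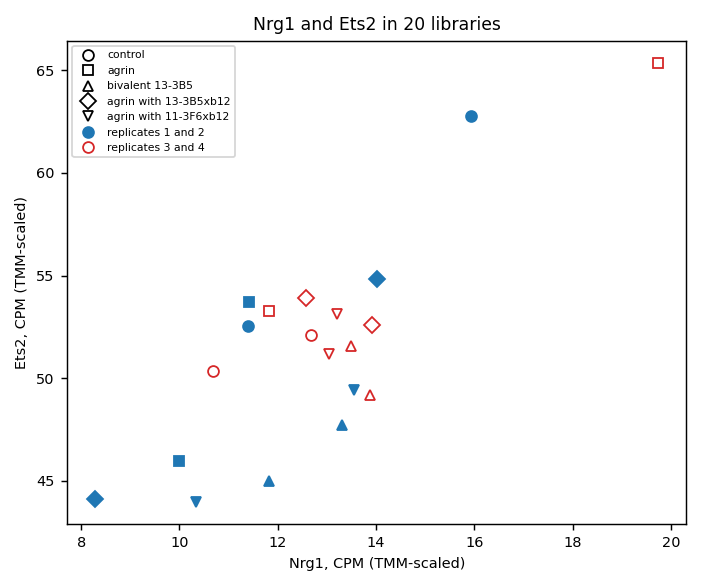
Ets2 (y axis) against Nrg1 (x axis), both in CPM, in the 20 libraries, with the symbol giving the treatment and filled or open points the replicate set. The points rise together, with r 0.93 on the log2 scale less treatment means, and agrin replicate 3 and control replicate 2 are the 2 highest for both genes.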

How the data were processed

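The deposited file holds whole-number counts per gene for 20 libraries, which the authors made and did not normalise, judged from the values. Per the labels, RNA was extracted with the Qiagen miRNAeasy kit and sequenced as stranded, ribosomal RNA-depleted libraries. The submitters' processing notes name Trim Galore 0.6.6, cutadapt 2.10, STAR 2.7.6a, HTSeq 0.12.4, DESeq2 1.32.0 and GRCm38. The annotation release and the strand setting of the counting are not given in the sources used here. Positions and exon lengths are from GENCODE release M21, in which 26667 of 26722 gene IDs were found. All columns matched a library.

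Counts were tested in R 4.3.3 with edgeR 4.0.16 (robust quasi-likelihood F-test, trimmed mean of M-values factors, filterByExpr with a minimum count of 10 and a total of 15, 14605 genes tested, two-sided, Benjamini-Hochberg adjustment over all of them, threshold 0.05). One model of all 20 libraries had treatment as its factor and 15 residual degrees of freedom, and the replicate set (1 and 2, or 3 and 4) or number was added for those tests. Log2 CPM used a prior count of 2. Simulated counts were used to check the tests with the replicate set in the model, and the model with treatment only was not simulated. CPM per kb divides by the summed exon length. Counting error only is covered by the floor of 3 counts.

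The members and lists were chosen with earlier results of these data known. All 9 members are named, and from a list up to 3 genes per comparison with the smallest p-values among those called, while most abundant or most similar genes are named by rank. Other genes were named after their values were seen. Alternatives were the replicate block, DESeq2 size factors, DESeq2 1.42.0, other filters, plain totals, fits within replicate sets or within 2 groups, and removal of libraries. As to pairing, the replicate numbers come from the sample titles, and deviations of same-numbered libraries from their treatment means correlated over 0.1 in every pair in 4 of the 8 comparisons. The mean was 0.195 for the same number and 0.201 for the other number of the same set.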

Additional observations from a re-analysis of the deposited data

Results flagged for a closer look

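Single libraries far from the rest of their treatment were looked for in the 8 detected genes with Dixon's test, over 40 groups of 4 libraries. In 3 groups a library passed the 95% critical value, where chance gives about 2. Nrg1 was at 10.3 CPM in agrin with 11-3F6xb12 replicate 1, while the other 3 libraries lay between 13.0 and 13.5. Erbb2 was at 29.5 CPM in bivalent 13-3B5 replicate 3, with the others between 37.6 and 38.6. Etv4 was at 20.7 CPM in agrin with 13-3B5xb12 replicate 4, with the others between 18.7 and 19.0.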

How the results depend on the processing

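In the 8 treatment comparisons 0 members were called under any setting, the replicate block included, which changed no call of a member. Between the replicate sets, 1 member was called, 0 without replicate 3 and 2 without the 2 libraries that stood apart, and leaving out one replicate or library gave 0 to 1. For the 4 replicate numbers, leaving out one library, an alternative chosen after seeing the data, also gave 0 to 1. The alternatives changed the sign of values that had not passed. Within replicates 3 and 4, log2 fold changes were -0.044 for Etv4 in agrin against control, 0.019 for Erbb2 and 0.18 for Etv4 in bivalent 13-3B5 against control and against agrin, 0.18 for Nrg1 in agrin with 13-3B5xb12 against control, and 0.013 and 0.076 for Erbb2 in agrin with 11-3F6xb12 against control and against agrin with 13-3B5xb12. Within replicates 1 and 2 they were -0.35 and -0.12 for Nrg1 in agrin and in bivalent 13-3B5 against control, 0.065 for Nrg1 in agrin with 13-3B5xb12 against agrin and -0.014 for Gabpa between the monovalent antibodies. Without the 2 libraries that stood apart, Nrg1 in agrin with 13-3B5xb12 against control was 0.0060 and Gabpb2 between the replicate sets 0.048. With one replicate or library left out, Nrg1 in agrin with 13-3B5xb12 ran from -0.23 to 0.14 against agrin and from -0.13 to 0.091 against control. In agrin against control Nrg1 ran from -0.19 to 0.19 and Gabpa from -0.0071 to 0.065, and in bivalent 13-3B5 against control Nrg1 ran from -0.026 to 0.18. Between the replicate sets Gabpa ran from -0.035 to 0.044, Etv4 from -0.084 to 0.052, Gabpb1 from -0.11 to 0.022 and Gabpb2 from -0.10 to 0.083. The cause was not tested. At 4 libraries a group, the 95% intervals leave room for changes of up to 1.58-fold, and Erbb4 was too low to test.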
